A study of Homo sapiens with 4 samples.

Results

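Small nucleolar RNA (snoRNA) host genes are transcribed units whose introns carry snoRNAs, and 9 of them were followed here: GAS5, SNHG1, SNHG3, SNHG5, SNHG6, SNHG7, SNHG8, SNHG12 and TAF1D. They were taken by symbol from a list of names, and all 9 were found among the 23143 gene symbols of the deposited expression table. The libraries hold polyadenylated RNA of A549, a human lung adenocarcinoma line, in an inducible form in which doxycycline raises GATA4, a zinc finger transcription factor. The group called noDOX has 2 libraries of cells with the normal GATA4 level, for which the design text names a vehicle, and the group called DOX has 2 libraries of cells given doxycycline, with GATA4 overexpressed. The sources used here state no dose, no time on doxycycline and no number of clones, and cells with doxycycline but no inducible GATA4 were not analysed here. The labels do not say whether replicates came from separate cultures, so every p-value rests on the spread among 4 libraries, part of which may be technical. In RNA from a whole culture, fewer cells with a transcript and less of it per cell cannot be told apart.

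A snoRNA guides the chemical modification or cleavage of ribosomal RNA, and most human snoRNAs are cut out of the introns of a longer transcript after splicing. In SNHG genes and GAS5 the introns hold the conserved product, while the spliced RNA codes for no long protein and is commonly removed by nonsense-mediated decay once ribosomes engage it. Many of these hosts belong to the terminal oligopyrimidine (TOP) class, whose transcripts begin with a C followed by a run of C and T, as do the mRNAs of ribosomal proteins. GAS5 (growth arrest specific 5) is known for rising in growth-arrested cells. TAF1D is the protein-coding member: its product is a subunit of SL1, the factor that brings RNA polymerase I to the ribosomal RNA genes.

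The start of the members is shown because the TOP tract is the sequence feature that they can share with ribosomal protein genes. Of the 9 members, 8 had an entry in RefSeq's table of promoter sequences (GRCh38.p14, a later build than the hg19 of the deposited values), and SNHG6 had none. A C followed by at least 4 bases that are all C or T, with that C within 10 bases of the annotated start on the gene's own strand, was found in 5 of 8 members (62.5%). The share was 33.5% over 35116 promoters, 31.5% on the opposite strand of the same windows, and 76.2% of 21 for ribosomal protein genes that host snoRNAs. Each line gives 25 bases before and 25 bases from the annotated start, 5′ to 3′, with the longest such tract in capitals. GAS5, the best known member, is shown for comparison and had no tract in that window, nor did SNHG1 and SNHG3. Another annotation, GENCODE, starts GAS5 downstream of the printed window, at 173868882, so the window cannot show the first bases from that start. For SNHG1 and SNHG3 the GENCODE start also lies outside the window, so whether a tract stands there was not tested. The same holds for SNHG8, SNHG12 and TAF1D, whose tracts are those at the RefSeq start.
TAF1D (chr11:93741471-93741520, minus strand): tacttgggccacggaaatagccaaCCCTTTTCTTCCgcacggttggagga
SNHG12 (chr1:28581849-28581898, minus strand): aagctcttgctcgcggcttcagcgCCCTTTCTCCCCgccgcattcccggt
SNHG8 (chr4:118278737-118278786, plus strand): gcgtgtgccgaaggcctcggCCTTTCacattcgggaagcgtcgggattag
SNHG5 (chr6:85678709-85678758, minus strand): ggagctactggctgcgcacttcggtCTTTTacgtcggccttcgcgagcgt
SNHG7 (chr9:136728160-136728209, minus strand): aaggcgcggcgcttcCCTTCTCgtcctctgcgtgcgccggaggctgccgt
GAS5 (chr1:173869021-173869070, minus strand): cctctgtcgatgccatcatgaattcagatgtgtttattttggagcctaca
The tract was longest, at 12 bases, in TAF1D and SNHG12, where it began 1 base before the annotated start. In SNHG7 it began 10 bases before the start, at the edge of the window. A match is a description of these letters, and a missing match says only that they do not stand in this window.

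GATA4 was at 12.2 and 14.5 FPKM (fragments mapped to a transcript, scaled by its length in kilobases and by sequencing depth) without and at 75.0 and 48.0 FPKM with doxycycline. All 5 epithelial markers were at 1 FPKM or more in every library, and all 4 blood and all 3 endothelial markers were below 1 FPKM in every library. Among 4 fibroblast markers COL1A1 alone was at 1 FPKM or more in every library, from 1.76 to 8.46 FPKM. Low FPKM fell on shared steps, which gave relative depths of 1.15 for noDOX 2, 1.10 for DOX 1 and 0.726 for DOX 2 when noDOX 1 was set to 1. Taken with transcript lengths, the steps gave estimated depths of 36.5 and 41.3 (noDOX 1 and 2) and 39.2 and 25.8 (DOX 1 and 2), in units of 1e6 fragments. FPKM sums were 1381820 and 989493 without and 975728 and 1238480 with doxycycline.

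Every member had a lower mean FPKM with doxycycline, at 0.563 to 0.792 of the noDOX mean, but none passed the test. On the log2 scale, 56.1% of all tested genes also had a lower mean with doxycycline. For most members the 2 libraries of 1 group differed by more than the 2 groups did. SNHG5, the host of SNORD50A and SNORD50B, was the most abundant member, at 2136 and 763 FPKM in noDOX 1 and 2, and at 716 and 1581 FPKM in DOX 1 and 2. SNHG6, the host of SNORD87, was at 657 and 346 FPKM without and at 288 and 493 FPKM with doxycycline. GAS5, which carries 10 box C/D snoRNAs, was at 631 and 362 FPKM without and at 283 and 494 FPKM with doxycycline. In each of these 3 genes noDOX 1 was highest, then came DOX 2 and noDOX 2, and DOX 1 was lowest, so the groups overlapped.

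SNHG8, the host of the H/ACA snoRNA SNORA24, was at 390 and 134 FPKM without and at 102 and 195 FPKM with doxycycline. SNHG1, with 8 box C/D snoRNAs in its introns, was at 148 and 56.3 FPKM without and at 40.9 and 85.0 FPKM with doxycycline. SNHG7 was at 129 and 78.1 FPKM against 68.4 and 79.6 FPKM. The order of libraries was the same as in SNHG5, although noDOX 2 and DOX 2 of SNHG7 differed little. SNHG3 was at 51.9 and 25.8 FPKM without and at 19.1 and 30.2 FPKM with doxycycline. SNHG12, the least abundant member, was at 25.2 and 13.7 FPKM against 8.79 and 19.5 FPKM. These repeated the order once more. Within a library, levels per length thus spanned from SNHG12 to SNHG5, and SNHG5 alone made up 41.7 to 52.4% of the summed FPKM of the 9 genes.

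**Figure D1:**
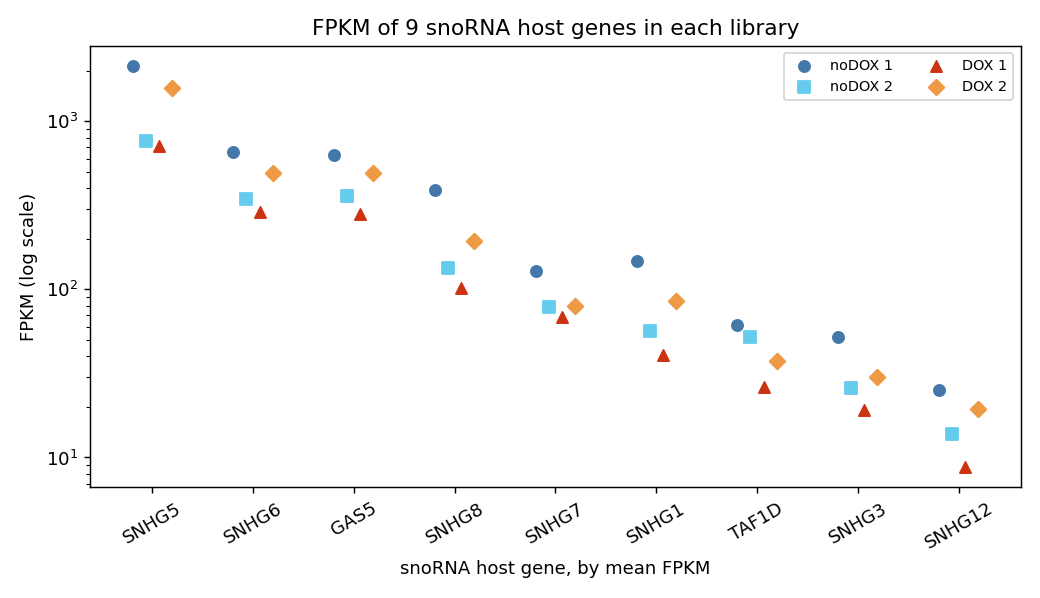
FPKM of each member (log axis) in the 2 noDOX and 2 DOX libraries, 1 point a library, with genes ordered by mean FPKM. noDOX 1 is highest and DOX 1 lowest in all 9 genes, and only TAF1D has both DOX points below both noDOX points, as 17.3% of all tested genes do.

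Differences were tested with limma on log2(FPKM + 1), over all 12504 genes whose mean reached 1 FPKM, which included all 9 members. A fold on this scale understates the change of low genes. Of the members, 0 passed a Benjamini-Hochberg adjusted p of 0.05, against a background of 0.088% of tested genes, and 1 had an unadjusted p under 0.05, as had 793 of the 12504 tested genes. The log2 differences, DOX minus noDOX, ran from -0.83 for TAF1D to -0.26 for SNHG5, with a median of -0.47, beside a median of -0.04 for all tested genes. Standard errors were 0.28 to 0.74. For GAS5 the difference was -0.35 with a 95% interval from -1.68 to 0.98, and for SNHG8 it was -0.69 with an interval from -2.44 to 1.05 (limma, adjusted p = 0.999 for each). With intervals this wide, neither no change nor a change of more than 2-fold lay outside the range for these genes. An exact permutation test of 2 against 2 libraries cannot go below p = 0.33.

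**Figure D2:**
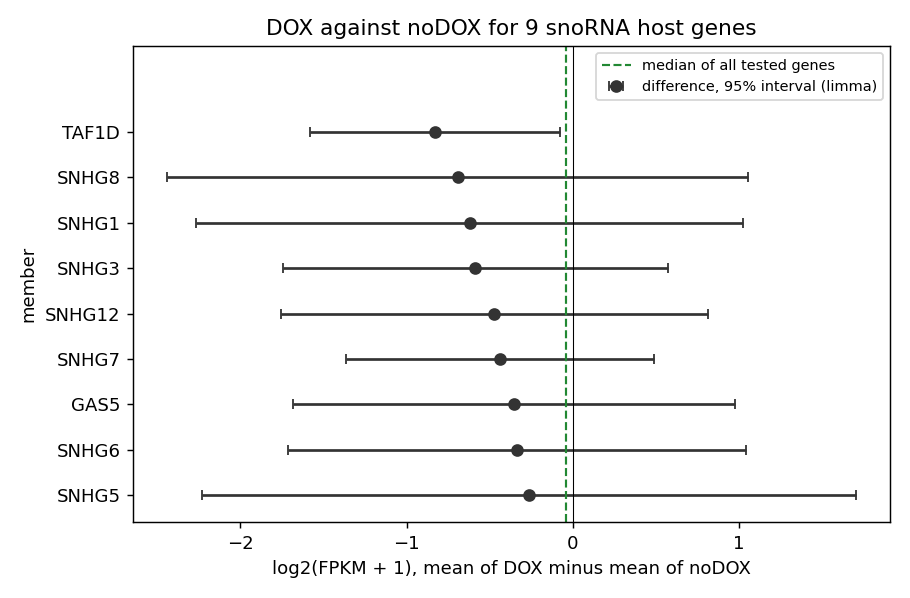
Difference of the mean log2(FPKM + 1), DOX minus noDOX, for each member, with its 95% interval from limma (bars) and the median of all tested genes (dashed line at -0.04). All 9 points lie below 0, and the interval excludes 0 before adjustment for TAF1D only.

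TAF1D was the 1 member whose groups did not overlap. Without doxycycline it was at 61.0 and 52.4 FPKM, and with doxycycline at 26.1 and 37.7 FPKM. Group means were 56.7 ± 6.1 and 31.9 ± 8.2 FPKM (SD, n = 2 each), and the log2 difference was -0.83 (SE 0.28; limma, unadjusted p = 0.0369, adjusted p = 0.743). Over all tested genes 17.3% had both DOX libraries below both noDOX libraries, so 1 of 9 members is no larger a share than the background. TAF1D was lower with doxycycline whichever library was left out, at -1.08 to -0.57. Among genes with a row, C11orf54 and MED17 share exon bases with TAF1D on the other strand in GENCODE release 29, and whether the authors' quantification used strand is not stated. Those genes were at 6.41 to 9.61 FPKM and 4.48 to 5.46 FPKM, below TAF1D in every library.

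The spread between libraries of 1 group was larger than the difference between groups for most members. noDOX 1 stood at 1.17 to 2.90 times noDOX 2 over the 9 genes, and DOX 2 at 1.16 to 2.22 times DOX 1. On the log2 scale the gap between the noDOX libraries exceeded the difference between groups in 8 of 9 members, and the gap between the DOX libraries exceeded it in 7. All members except TAF1D shared the order noDOX 1, DOX 2, noDOX 2, DOX 1 from high to low. That order held for 16.3% of all tested genes. Centred on each gene's own mean, the median log2 level of the members was 0.65 in noDOX 1, 0.21 in DOX 2, -0.22 in noDOX 2 and -0.67 in DOX 1. Without noDOX 1 the median difference of the members was 0.05, and without noDOX 2 it was -0.94. Leaving out DOX 1 gave -0.10, and leaving out DOX 2 gave -0.90. The size of the group difference, and for 6 of the 9 members its sign, thus rested on single libraries.

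**Figure D3:**
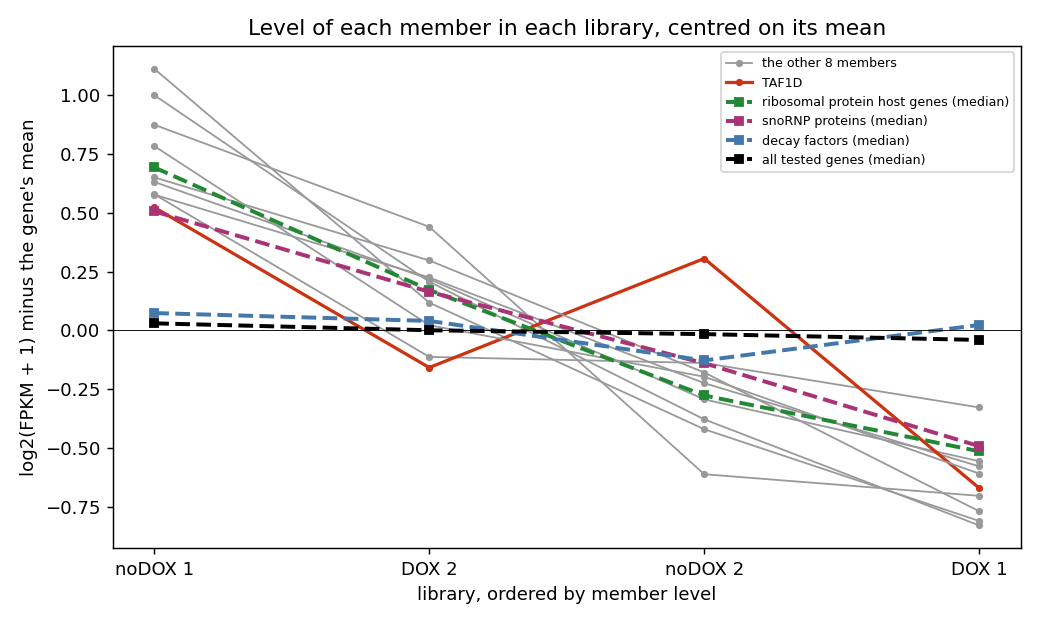
log2(FPKM + 1) of each member minus its own mean (solid lines) and the median of the same quantity over other gene lists (dashed lines), with the 4 libraries placed in the order that 8 members share. The members run from 0.52 to 1.11 in noDOX 1 down to -0.83 to -0.33 in DOX 1. TAF1D (red) departs most from the median of the others in noDOX 2, by 0.56, and next in DOX 2, by -0.37.

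Transcript length and the FPKM sum moved with the same order of libraries. Sums were highest in noDOX 1 and next in DOX 2, as for the members, whereas the estimated depth was highest in noDOX 2 and lowest in DOX 2. The median RefSeq-matched transcript length of the members was 430 to 2201 bases. Among 645 tested genes of 500 to 1000 bases, the median centred log2 level was 0.50 in noDOX 1, -0.30 in noDOX 2, -0.37 in DOX 1 and 0.17 in DOX 2. Among 3036 genes of 4000 bases or more the signs were turned, at -0.17, 0.07, 0.15 and -0.07. With a smooth trend on length removed in each library, an alternative added after the data were seen, the difference of GAS5 was -0.12, that of SNHG6 was -0.11 and that of SNHG5 was 0.0087. TAF1D was then at -0.76, SNHG3 at -0.53 and SNHG1 at -0.48, and 0 members passed (limma, adjusted p = 0.369 for TAF1D). The median centred level of the members became 0.32 in noDOX 1, 0.0056 in noDOX 2, -0.32 in DOX 1 and 0.02 in DOX 2.

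Taken with its length and the estimated depth, the lowest member value, SNHG12 in DOX 1, corresponds to about 373 fragments, which have a Poisson SD of 5.18% that covers counting error only. SNHG12 shares exon bases with TRNAU1AP on the other strand, and that gene, at 14.2 and 6.76 FPKM without and 5.77 and 12.3 FPKM with doxycycline, had the same order of libraries. SNHG3 shares exon bases with RCC1 on its own strand (34.9 to 48.2 FPKM), and SNHG7 with FAM69B on the other strand (11.6 to 16.2 FPKM). These values are uncertain to that extent.

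The small RNAs inside the members were read from the same fit. Of 40 small RNA genes listed for the 9 hosts from general knowledge, 37 lay inside the span of their host in RefSeq and 35 of those had a row. All of the 35 except MIR1304 are snoRNA genes. Mature snoRNAs lack a poly(A) tail, and an FPKM is unreliable for a gene about as short as the fragments themselves. SNORD74 in GAS5 and SNORD27 in SNHG1 illustrate how few fragments lie behind them: their ratio was 1 in noDOX 1 and 5 in DOX 1, and that of SNORD27 to SNORD74 was 2 in noDOX 2 and 3 in DOX 2, to 3 significant digits. Of the 35, 3 were listed at 0 in every library and 10 in 1 to 3 libraries. Among the 32 tested, 14 had both DOX libraries below both noDOX libraries and 3 had the reverse. Over all 198 tested snoRNA genes 25.3% had the first pattern and 6.57% the second.

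Of the small RNAs of TAF1D, 8 of 9 had a lower mean log2 value with doxycycline, 6 of them without overlap of the groups. Over the 198 snoRNA genes, 66.7% had a lower mean and 25.3% were lower without overlap. Part of this rested on listed zeros. SNORA1, at 15.3 and 4.35 FPKM without doxycycline, was listed at 0 in both DOX libraries, as was SNORD5. SNORD6 was at 761 and 202 FPKM against 106 and 0 FPKM, and MIR1304, whose groups overlapped, was also listed at 0 in DOX 2. SNORD5, a box C/D snoRNA in a TAF1D intron, was at 617 and 579 FPKM without doxycycline and listed at 0 in both DOX libraries (limma, adjusted p = 0.00352). Its log2 difference was -9.2, and -12.5 with a pseudocount of 0.1. At 73 bases SNORD5 is about as short as SNORD74 and SNORD27, so few fragments may lie behind these values. SNORD5 is shown because it had the smallest adjusted p of all genes tested. The box C letters TGATGA and the box D letters CTGA are in capitals. Both sets of letters occur in 76.7% of 288 SNORD transcripts of GENCODE release 29, searched on the transcript strand.
SNORD5 (GRCh38, chr11:93733228-93733300, minus strand): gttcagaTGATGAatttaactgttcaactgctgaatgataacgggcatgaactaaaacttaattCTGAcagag
Of the H/ACA snoRNAs of TAF1D, 5 were above 0 in every library. SNORA32 was at 103 and 64.8 FPKM without and 30.8 and 28.5 FPKM with doxycycline. SNORA40 was at 191 and 110 FPKM against 15.0 and 100 FPKM, and SNORA8 at 92.5 and 86.1 FPKM against 31.1 and 74.4 FPKM. The groups of these 3 did not overlap, and none passed (limma, adjusted p = 0.520 to 0.957). The other two overlapped, SNORA18 at 62.0 and 20.4 FPKM against 34.2 and 52.6 FPKM and SNORA25 at 33.4 and 12.3 FPKM against 4.27 and 19.7 FPKM (limma, adjusted p = 0.999 for each). In SNORA40 and SNORA25 the DOX libraries stood far apart.

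In SNHG1, SNORD31 was at 363 and 142 FPKM without doxycycline and listed at 0 in both DOX libraries (limma, adjusted p = 0.0429). That call ended with no filter (adjusted p = 0.194), with no trend in the moderation (adjusted p = 0.0650) and with the crossed replicate block (adjusted p = 0.0934). SNORD31, at 68 bases, is shorter than SNORD74 and SNORD27, so few fragments may lie behind its values too. SNORD5 and SNORD31 were the 2 snoRNA genes called among 198 tested, and both lie in members. SNORD29 had the highest FPKM of the SNHG1 series in noDOX 1, noDOX 2 and DOX 1, which at 65 bases does not rank its abundance. It was at 4160 and 2755 FPKM without and 1772 and 1529 FPKM with doxycycline. SNORD30, from the same transcript, was at 1989 and 563 FPKM against 1295 and 3327 FPKM. The first had groups that did not overlap and the second was highest in DOX 2. Neither passed (limma, adjusted p = 0.923 and 0.999), and the difference between them was not tested.

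In GAS5, 7 of 10 snoRNA genes were tested and 3 were listed at 0 throughout. Of the 7, both DOX libraries were above both noDOX libraries in 3, below them in 2 and overlapped in the rest. Over the 198 tested snoRNA genes, the shares were 6.57% above and 25.3% below. SNORD47 was at 2125 and 1329 FPKM without and 725 and 1171 FPKM with doxycycline, and SNORD80 at 1522 and 1517 FPKM against 740 and 1049 FPKM. These were the 2 with lower DOX values. The 3 with higher ones were SNORD44, at 578 and 417 FPKM against 872 and 1594 FPKM, SNORD79, at 667 and 592 FPKM against 751 and 920 FPKM, and SNORD74, at 114 and 91.2 FPKM against 477 and 157 FPKM. None of these 5 passed (limma, adjusted p = 0.814 to 0.999). SNORD74 stood in the whole-number ratios to SNORD27 above, so its separation of groups may rest on few fragments. A single fragment also counts for more FPKM in DOX 2, whose relative depth was 0.726.

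Genes that share the members' biology were read from the same fit, and 0 of any list passed over all genes tested. Of 12 other non-coding snoRNA hosts looked for by symbol, 5 had a row and 4 were tested. All 4 had lower means with doxycycline (median -0.52). For the hosts without a row nothing can be said about their level. SNHG4 was at 14.8 and 10.9 FPKM against 6.40 and 10.7 FPKM, without overlap, and SNHG9 was at 45.6 and 11.8 FPKM against 12.9 and 14.1 FPKM. Ribosomal protein genes that host snoRNAs were lower in 23 of 23 cases (median -0.38), and 19 of them had the order of libraries that 8 members shared. RPL21, whose many near-identical copies make its level uncertain, was at 361 and 264 FPKM without and 140 and 220 FPKM with doxycycline. The centred medians of this list, 0.69, -0.28, -0.51 and 0.17 in noDOX 1, noDOX 2, DOX 1 and DOX 2, lay close to those of the members. Without noDOX 1 its median was 0.08. Translation factor genes with a TOP tract had a median of -0.26, with 10 of 11 lower. NAP1L1, a histone chaperone gene of that list, was at 165 and 157 FPKM against 101 and 120 FPKM.

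The proteins that bind and assemble snoRNAs were lower in 17 of 17 cases (median -0.27), and 14 had the shared order. Without noDOX 1 their median was 0.077, and without DOX 1 0.027. RUVBL1, an ATPase of snoRNP assembly, was at 106 and 67.0 FPKM without and 40.8 and 81.1 FPKM with doxycycline. NHP2L1, which binds the kink-turn of box C/D snoRNAs, was at 88.1 and 54.9 FPKM against 39.4 and 66.3 FPKM. Protein-coding snoRNA hosts outside the ribosome had a median of -0.14, with 19 of 23 lower. Without noDOX 1 it was 0.042, and without DOX 1 0.14. EIF4A2, an RNA helicase gene with several intronic snoRNAs, departed from the shared order, at 212 and 375 FPKM without and 186 and 147 FPKM with doxycycline. Its groups did not overlap, and it did not pass (limma, adjusted p = 0.957).

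Nonsense-mediated decay factors had the opposite sign, with 12 of 16 at higher means in the DOX libraries (median 0.11, -0.04 without noDOX 2) and 0 in the order that 8 members shared. SMG8, a regulator of the kinase that phosphorylates UPF1, was at 7.30 and 6.78 FPKM without and 10.4 and 9.26 FPKM with doxycycline. Its groups did not overlap, and it did not pass (limma, adjusted p = 0.832). The 6 mRNAs known as decay substrates had a median of -0.06, which was 0.066 after rescaling to the sum without small RNA genes, 0.28 without noDOX 1 and -0.31 without noDOX 2. Of these, GADD45B, a stress gene, was at 112 and 50.9 FPKM against 22.0 and 51.8 FPKM, in the shared order. GADD45A, its relative, was at 79.2 and 73.0 FPKM against 114 and 75.5 FPKM.

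RNA polymerase I and its initiation factors, the partners of TAF1D, were lower in 11 of 14 cases with a median of -0.12. TAF1C, a subunit of the same SL1 complex, was at 9.66 and 11.1 FPKM without and 7.94 and 8.90 FPKM with doxycycline. TAF1A, another subunit, was at 5.74 and 6.36 FPKM against 5.28 and 5.25 FPKM. For both genes the DOX libraries lay below the noDOX libraries, and neither passed (limma, adjusted p = 0.986 and 0.999). They were the only 2 of the 14 with that pattern, and 1 of the 14 had the reverse. Over all tested genes the shares were 17.3% and 14.7%, so 2 of 14 is no larger a share than the background. POLR1C, a subunit shared with RNA polymerase III, was at 40.4 and 20.3 FPKM against 13.9 and 24.0 FPKM, with overlap.

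Among 8464 genes at a mean of 5 FPKM or more, the centred levels closest to the median of the members over these 4 libraries belonged to SNRPA1, DSTN, HNRPDL, PAFAH1B3 and EEF1D, with root mean square distances of 0.015 to 0.027 on the log2 scale. SNRPA1, a U2 snRNP protein gene, was at 158 and 86.1 FPKM without and 64.0 and 117 FPKM with doxycycline. EEF1D, a translation elongation factor gene of the TOP list, was at 598 and 338 FPKM against 250.2 and 446 FPKM. With 4 libraries, likeness of this kind is a description only.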

How the data were processed

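Polyadenylated RNA of 4 libraries was quantified by the authors, who deposited 1 table of FPKM with a column for each library. Per the submitters' processing notes, TopHat2 2.0.10, Bowtie, Cufflinks 2.2.1 and Cuffdiff were used with hg19; the sources used here do not give the annotation, strand setting or scaling. The members and lists were chosen with earlier results of these data known. Values were used as log2(FPKM + 1), and genes whose mean reached 1 FPKM were fitted with limma 3.58.1 in R 4.3.3 (2 group means, trend in the moderation, two-sided, Benjamini-Hochberg at 0.05, 2 residual degrees of freedom). The fit was also run on simulated data with the same spread for every gene and no trend shared within a library. That run does not show how the fit behaves on these values.

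Genes named beside the members were the 4 of each list with the smallest p, or fewer, and the 5 most alike in level. Lengths came from GENCODE release 29 transcripts with a RefSeq match, by symbol (87.9% of tested genes outside small RNA classes). Depth was estimated from the most frequent ratio of values under 0.1 FPKM (248 of 2200 genes for noDOX 2, 298 of 2024 for DOX 1, 282 of 1743 for DOX 2) and from single-transcript genes of 3000 bases or more, up to a set limit. These estimates rest on the reference lengths and are approximate. Alternatives covered the pseudocount, the filter, scaling, moderation, small RNA genes, a replicate block and leaving out each library.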

Additional observations from a re-analysis of the deposited data

How the results depend on the processing

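Over 16 alternatives 0 members passed (limma, adjusted p = 0.159 to 1), and 134 of 144 member differences were negative. Of the 10 that turned sign, 9 came from leaving out a library. Those ranges were -0.75 to 0.049 for GAS5, -1.31 to 0.067 for SNHG1, -1.01 to 0.48 for SNHG5, -0.80 to 0.12 for SNHG6, -1.46 to 0.074 for SNHG8 and -1.004 to 0.061 for SNHG12. A library left alone in its group is there assumed to vary like the other group. The remaining one was SNHG5, at 0.0087 with the length trend removed. Leaving out a library moved the median of the members between -0.94 and 0.048, of ribosomal protein hosts between -0.89 and 0.082, of other non-coding hosts between -0.77 and -0.066, of translation factors between -0.43 and -0.065, of decay substrates between -0.31 and 0.28 and of RNA polymerase I genes between -0.22 and -0.0047. Rescaling to the sum without small RNA genes raised the median of all genes from -0.04 to 0.07, and gave -0.35 for the members, -0.13 for translation factors and -0.012 for RNA polymerase I genes, the last at -0.067 under median-of-ratios scaling. All 9 members stayed below the median of all genes under both scalings. Without noDOX 1 only 4 of the 9 did, and without DOX 1 only 5, while without noDOX 2 or without DOX 2 all 9 did.

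Genes called numbered 11, and 1 with no filter, 1 without small RNA genes, 41 to 63 with a library left out, and 0 with the length trend removed (limma, 963 at an unadjusted p under 0.05). The fit with the length trend removed covered 10649 genes with a length and no small RNA genes. Its 0 calls thus compare most closely with the 1 without small RNA genes, not with the 11. SNORD5 and SNORD31 were not tested in it. With the replicate block 65 genes and 0 members were called. Same-numbered libraries deviated in opposite ways (r = -0.35 over 12504 genes, -0.76 without small RNA genes). The labels do not say whether the numbers pair libraries, and these correlations cannot settle it. With crossed numbers, an alternative added after the data were seen, the block called 7 genes and 0 members (limma). That fit had 2617 genes at an unadjusted p under 0.05, against 793 with no block. The causes of these changes were not tested.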
